A study of Homo sapiens with 10 samples.

Results

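The genes of the cytosolic ribosomal proteins were examined in ARPE-19 cells, a human retinal pigment epithelial line, after 48 h in high glucose. Members were the rows of the read-count table whose gene symbol has the form of a ribosomal protein of the small (RPS) or large (RPL) subunit, together with RPSA and the stalk proteins RPLP0, RPLP1 and RPLP2. The rule took 85 of 22626 rows, 32 of the small subunit and 53 of the large subunit. The control group (5 libraries, MG) was kept in 5.5 mM D-glucose with 32 mM mannitol, which matches the osmotic load, and the high glucose group (HG, 5 libraries) in 37.5 mM D-glucose. All cells came from this 1 line, were grown in DMEM with fetal bovine serum, and were harvested at the same time, and nothing in the labels says whether replicates were separate cultures, so that p-values measure the spread between these libraries. The control libraries are called control replicates 1 to 5, and the HG libraries HG_1 to HG_5, the numbers of their columns in the deposited tables.

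Cytosolic ribosomal proteins, with ribosomal RNA, form the particle that translates messenger RNA. The small subunit reads the message, and the large subunit joins amino acids and carries the flexible stalk that recruits elongation factors. Their messenger RNAs are abundant in dividing cells, and many begin with a C followed by a run of pyrimidines, the terminal oligopyrimidine (TOP) motif, through which mTOR and LARP1 control their translation. The mTOR pathway was part of the mechanism that the study proposed for the senescence of these cells. Total RNA measures the amount of TOP messages and not how fast they are translated.

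The libraries held 32448991 to 45864176 counts. TXNIP, a gene induced by glucose, was at 0.808 to 1.23 CPM (counts scaled to the size of the library with TMM factors) in control and at 5.38 to 12.9 CPM in high glucose libraries, in the order of the labels. Of 11 markers of pigment epithelium listed, 7 had enough counts to test and 3 of them fell in high glucose (PMEL, KRT8 and KRT18), with a summed level of 2734 to 3489 CPM in control and 1708 to 2382 CPM in high glucose libraries. Of the 3 immune markers, CD68, which other cells also express, rose, and the list summed to 54.5 to 81.1 CPM in control and 101.6 to 143.5 CPM in high glucose libraries, while CD3E was at 0 in every library. Photoreceptor, endothelial and glial markers each summed to less than 1 CPM in every library. The part of these markers in the values of the ribosomal protein genes was not tested.

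Start sequences are shown here for the members to which the results return, because the pyrimidine run at the first base is what marks a TOP message. They were read from RefSeq (GRCh38.p14), which had a start for 68 of the 85 members. A TOP-like start was taken as a C at the first base followed by at least 4 bases that are each C or T, on the gene's own strand. Such a start was found at 1 or more positions in 47 of these 68 genes (69.1%), against 769 of 10903 other tested genes (7.05%) and 1429 of all 35116 start sequences (4.07%). Each line gives 10 bases before the start and 20 bases from it, 5′ to 3′, with the pyrimidine run of a TOP-like start in capitals.
RPS6 (chr9:19380217-19380246, minus strand): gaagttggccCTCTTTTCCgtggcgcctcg
RPLP0 (chr12:120201092-120201121, minus strand): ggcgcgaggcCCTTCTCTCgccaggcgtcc
RPL13A (chr19:49487598-49487627, plus strand): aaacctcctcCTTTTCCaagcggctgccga
RPS27 (chr1:153990752-153990781, plus strand): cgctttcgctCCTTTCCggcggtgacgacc
RPS27L (chr15:63157458-63157487, minus strand): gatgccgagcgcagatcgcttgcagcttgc
RPL22 (chr1:6199576-6199605, minus strand): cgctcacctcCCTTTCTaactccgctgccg
RPL22L1 (chr3:170870176-170870205, minus strand): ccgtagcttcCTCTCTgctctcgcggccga
RPL26 (chr17:8383174-8383203, minus strand): gcgtgtagttCTCTTCCCTTTTgcggccat
RPL26L1 (chr5:172958719-172958748, plus strand): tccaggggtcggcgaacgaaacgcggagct
RPL36A (chrX:101391001-101391030, plus strand): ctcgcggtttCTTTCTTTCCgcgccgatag
RPL36AL (chr14:49620607-49620636, minus strand): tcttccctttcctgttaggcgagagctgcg
RPS18 (chr6:33272065-33272094, plus strand): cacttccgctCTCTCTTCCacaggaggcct
RPL7A (chr9:133348208-133348237, plus strand): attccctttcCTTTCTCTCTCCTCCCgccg
RPS25 (chr11:119018324-119018353, minus strand): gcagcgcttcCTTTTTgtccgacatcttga
The parents RPS27, RPL22, RPL26 and RPL36A hold such a run, and of their paralogs shown only RPL22L1 does. In RPL36AL the annotated first base lies inside a pyrimidine tract that ends too soon to match. A match describes the letters at an annotated start and was not used in any test.

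No difference between the groups was detected in any ribosomal protein gene with all 10 libraries and no correction. Of the 83 members with enough counts to test, none differed between high glucose and control at an adjusted p under 0.05 (edgeR quasi-likelihood test, Benjamini-Hochberg adjustment over 14936 rows), where 15.4% of all rows tested did. DESeq2, the likelihood ratio test and limma on FPKM likewise called 0 members. At an unadjusted p under 0.05 in edgeR there were 2 of 83 members, RPS27L and RPS6, against 28.5% of all rows. At the same limit DESeq2 had 2 members, the likelihood ratio test 1 and limma on log2(FPKM + 1) 4. The shares of all rows under these other fits are not given here. In no member did the 5 libraries of a group all lie on 1 side of the other 5, while 6.74% of all rows tested were higher and 6.91% lower in every high glucose library.

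The median log2 fold change of the members was 0.03 and that of all rows tested 0.00. The sign of the members' median turned in some fits, to -0.03 without HG_1, -0.03 with the GC content and length correction and -0.01 with 1 surrogate variable. The log2 fold change was above 0 in 58 of 83 members (69.9%), against 50.2% of all rows. This count was 27 without HG_1 and 77 without control replicate 2, and it was 28 with the GC content and length correction and 36 with 1 surrogate variable. The middle of the members, from the first to the third quartile, ran from -0.01 to 0.07, and that of all rows from -0.15 to 0.15. Both subunits were alike in this respect, with a median of 0.03 over 32 small subunit members and 0.03 over 51 large subunit members. The 95% interval of the fold change lay within 1.2-fold of no change in 39 members, and within 1.5-fold in 80 members (22.1% and 69.8% of all rows tested). The 3 whose intervals reached beyond 1.5-fold were RPS18, RPL7A and RPS25, described below with their values. For the other 80 members these intervals bound a difference to less than 1.5-fold in either direction.

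**Figure D1:**
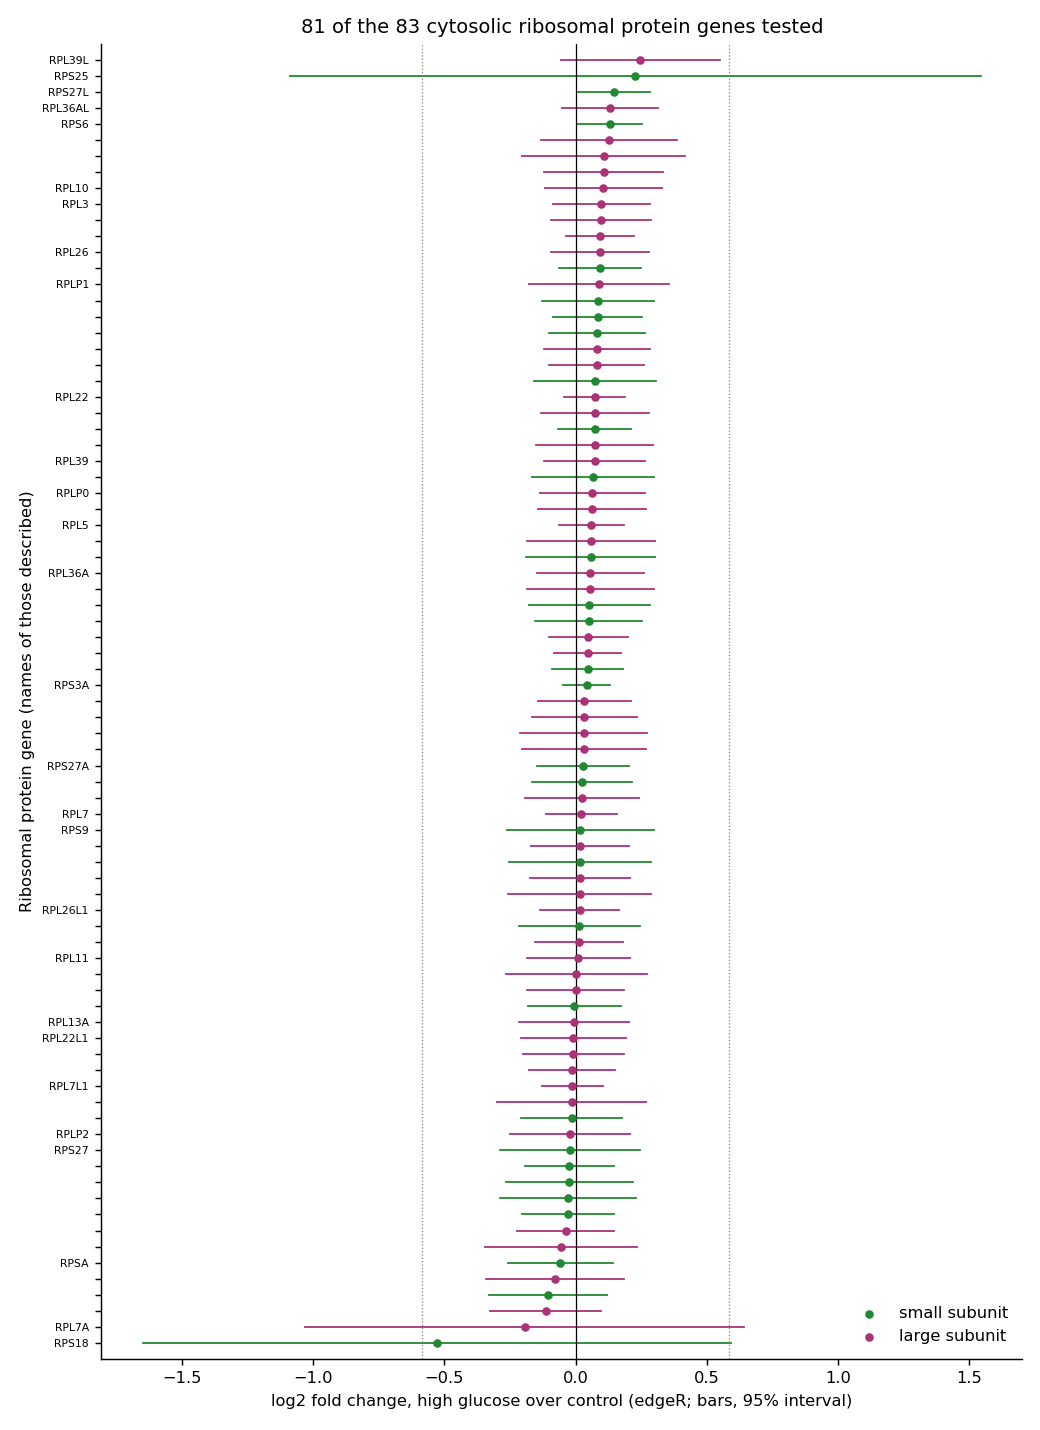
Log2 fold change in high glucose over control of 81 of the 83 cytosolic ribosomal protein genes tested (horizontal axis; points, edgeR estimate; bars, 95% interval; colour, subunit; dotted lines, 1.5-fold), ordered by value, with the names of the genes described. All intervals drawn but those of RPS27L and RPS6 include 0, and those of RPS18, RPL7A and RPS25 extend beyond 1.5-fold.

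The members took up a small and similar share of the counts in 8 of the 10 libraries. Their summed counts were 4.01% of the library in control replicate 1, 4.12% in control replicate 3, 4.08% in control replicate 4 and 4.07% in control replicate 5. In the high glucose group they were 4.16% in HG_2, 4.34% in HG_3, 4.09% in HG_4 and 4.20% in HG_5. Control replicate 2 at 4.88% and HG_1 at 5.06% stood above all others, so that there was 1 such library in each group. The group means were 4.23% ± 0.37 in control and 4.37% ± 0.39 in high glucose (SD, n = 5), a difference smaller than the spread within a group. Without these 2 libraries they were 4.07% ± 0.04 and 4.20% ± 0.10 (SD, n = 4). The groups still overlapped, since HG_4 was below control replicate 3. With 1 library left out, the difference of high glucose minus control turned with the choice. It was -0.04 percentage points without HG_1 and 0.30 without control replicate 2. Both subunits moved in proportion. The count of small over large subunit members was 0.526 ± 0.003 in control and 0.523 ± 0.007 in high glucose libraries (SD, n = 5).

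Control replicate 2 and HG_1 set the spread of nearly every member. HG_1 was the highest of its group and control replicate 2 the highest of its group in 77 of 83 members (92.8%), a pattern found in 26.2% of all rows tested. On the log2 CPM scale the median member stood 0.29 above its own mean in HG_1 and 0.25 above it in control replicate 2, and between -0.09 and 0.00 in the other 8 libraries. Members of higher GC content stood further out. In HG_1 the 41 members with a transcript GC content above 48.9% had a median of 0.34 and the 42 others 0.24, and in control replicate 2 these values were 0.29 and 0.20. After a correction of the counts for GC content and length, library by library, the median member was at 0.08 in HG_1 and 0.12 in control replicate 2. The study's labels give no batch or date for these libraries.

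**Figure D2:**
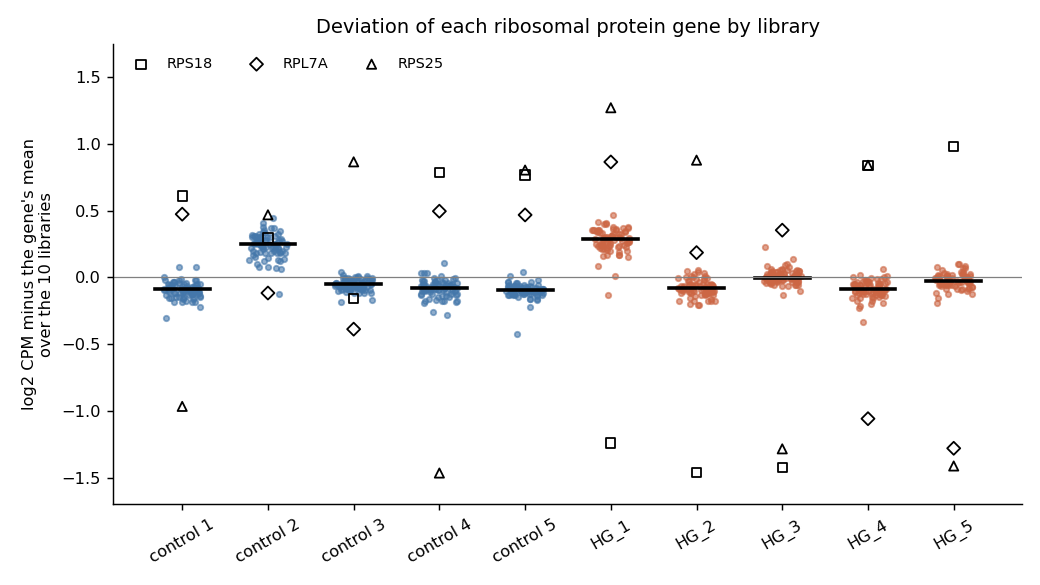
Log2 CPM of each member minus its own mean over the 10 libraries (vertical axis), by library (blue, control; orange, high glucose; 81 members drawn; bar, median of all 83; open symbols, RPS18, RPL7A and RPS25). The members sit together above 0 in control replicate 2 and HG_1, with medians of 0.25 and 0.29, and near or just below 0 elsewhere, while the open symbols scatter in both groups.

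Which members passed the threshold, and in which direction, differed between fits. Without control replicate 2 alone, 2 members passed as higher, RPS6 (0.17) and RPS27L (0.20), and 0 as lower, where 8.35% of all rows were higher and 8.2% lower, and the median log2 fold change of the members was 0.10. Without HG_1 alone 0 members passed, where 9.74% of all rows were higher and 10.1% lower, and the median was -0.03. With both libraries left out, 11 members were higher in high glucose (13.3% of members, and 13.3% of all rows) and 0 were lower (13.8% of all rows). These were RPS27L, RPL38, RPL36AL, RPS6, RPL32, RPL12, RPL10, RPS20, RPL3, RPL15 and RPS4X, at log2 fold changes from 0.07 for RPS4X to 0.17 for RPS27L. In 12 members all 4 remaining high glucose libraries lay above all 4 control libraries, a share of 14.5% beside 15.1% of all rows, and in 0 members they lay below (15.6% of all rows). With the correction for GC content and length, 0 members were higher (14.4% of rows) and 8 were lower (14.7% of rows), from RPL21 at -0.20 and RPS10 at -0.19 to RPL10A at -0.09. With 1 surrogate variable in the model, 2 were higher (16.5% of rows), RPS27L and RPS6, and 10 were lower (16.5% of rows), among them RPS10 at -0.17, RPL18 at -0.15 and RPSA at -0.11. No member passed with opposite signs under these 3 fits, and RPS10 and RPL18 were among those lower under both corrections. The calls were small in size, none above 1.5-fold. Apart from RPS6, RPS27L, RPL36AL, RPL3, RPL10 and RPSA, the names in this paragraph were chosen after their values were seen.

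**Figure D3:**
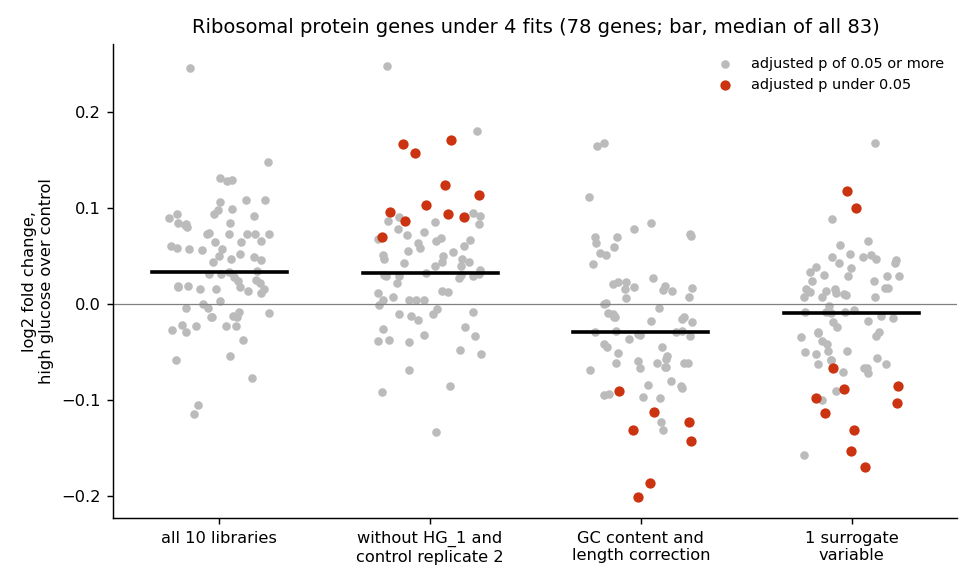
Log2 fold change in high glucose over control of 78 of the 83 members tested (RPS18, RPL7A and RPS25 are among those not drawn) under 4 fits of edgeR (red, adjusted p under 0.05; bar, median of all 83 members). The median is 0.03 with all 10 libraries and with 8, -0.03 after the GC content and length correction and -0.01 with 1 surrogate variable.

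Among small subunit members, RPS6, the protein that S6 kinase phosphorylates downstream of mTOR, passed the test in some of these fits, as did RPS27L. RPS6 lies at chr9:19375715-19380254 on the minus strand and shares no stretch of 100 coding bases with another annotated gene. It was at 1060, 1192, 1065, 1033 and 1061 CPM in control replicates 1 to 5, and at 1324, 1158, 1139, 1143 and 1153 CPM in HG_1 to HG_5. Every high glucose library exceeded the 4 controls other than replicate 2, and only that replicate made the groups overlap. The log2 fold change of RPS6 was 0.13 with a standard error (SE) of 0.06, 1.09-fold with an interval from 1.00 to 1.19 and an adjusted p of 0.163 in edgeR. Without HG_1 and control replicate 2 it was 0.12 (SE 0.02, adjusted p = 0.00420 in edgeR), and over all 23 alternatives the value of RPS6 ran from 0.05 to 0.17 and its adjusted p from 0.00420 to 0.548.

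RPSA, a small subunit protein also known as the laminin receptor precursor, had values of 1104, 1403, 1117, 1162 and 1138 CPM in control replicates 1 to 5. In HG_1 to HG_5 it was at 1382, 1054, 1110, 1080 and 1063 CPM. HG_1 and control replicate 2 again stood apart from the rest, and among the other libraries HG_3 fell between controls. The log2 fold change of RPSA was -0.06 (SE 0.09, adjusted p = 0.741 in edgeR), and 68.1% of its 100-base coding windows occur in other genes, mostly annotated pseudogenes, so that its counts may be shared with them.

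RPS27A is made as a fusion to ubiquitin, which is cut off to leave both a ribosomal protein and free ubiquitin. It was at 442.0 to 557.5 CPM in control and 445.3 to 564.3 CPM in high glucose libraries, with a log2 fold change of 0.03 (SE 0.08). The ranges were nearly the same. RPS3A, which sits on the small subunit near the exit of the message, had the smallest spread of all members within groups. RPS3A was at 551.4, 591.0, 538.3, 549.3 and 546.1 CPM in control replicates 1 to 5 and 598.9, 578.8, 575.6, 553.1 and 553.4 CPM in HG_1 to HG_5. Its log2 fold change was 0.04, with an interval from -0.05 to 0.13, which bounds a difference in RPS3A to under 1.2-fold.

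The large subunit stalk is built from RPLP0, which anchors it, and RPLP1 and RPLP2, which form dimers on RPLP0. RPLP0 had the highest level per transcript length of all members, with a mean of 1609 FPKM (fragments scaled by transcript length and library depth) over the 10 libraries. It was at 1700 to 2162 CPM in control and 1754 to 2300 CPM in high glucose libraries. RPLP1 was at 541.2 to 767.2 CPM in control and 558.7 to 810.1 CPM in high glucose libraries, and RPLP2 at 362.3 to 482.3 and 345.9 to 480.3 CPM. The highest value of all 3 genes in each group was that of control replicate 2 and of HG_1. The log2 fold changes were 0.06 (SE 0.09) for RPLP0, 0.09 (SE 0.12) for RPLP1 and -0.02 (SE 0.10) for RPLP2, each smaller than its error. As a share of the library, the 3 stalk genes held 0.280% ± 0.029 of the counts in control and 0.294% ± 0.030 in high glucose libraries (SD, n = 5).

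RPL5 and RPL11, which with 5S RNA form the particle that binds MDM2 when ribosome assembly is disturbed, had overlapping values in the groups. RPL5 was at 790.6, 861.0, 777.9, 793.3 and 785.3 CPM in control replicates 1 to 5 and at 948.5, 800.8, 832.7, 784.4 and 813.4 CPM in HG_1 to HG_5. RPL11 was at 463.7 to 590.7 CPM in control and 452.5 to 606.2 CPM in high glucose libraries. The log2 fold changes were 0.06 for RPL5 (SE 0.06, adjusted p = 0.551 in edgeR) and 0.01 for RPL11 (SE 0.09, adjusted p = 0.955 in edgeR). Of the 17 members in which inherited variants are known to cause Diamond-Blackfan anemia, a failure of red cell production, all were tested and 0 passed with all 10 libraries and no correction, where 15.4% of all rows did, and their median log2 fold change was 0.01. Of these 17, 1 was higher and 0 lower without HG_1 and control replicate 2, 0 were higher and 4 lower with the GC content and length correction, and 0 were higher and 3 lower with 1 surrogate variable, beside the shares of all rows given above for these fits.

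Levels between members differed far more than levels between groups. The mean FPKM of a tested member had a median of 503 and exceeded 100 in 73 of 83 members. After RPLP0 the highest were RPL13A, with 1466 ± 143 FPKM in control and 1471 ± 151 FPKM in high glucose libraries (SD, n = 5), and RPL3, a protein of the peptidyl transferase region, with 1335 ± 110 and 1438 ± 124 FPKM. The ranges of mean ± SD of these 2 genes overlapped in both groups, and the genes were not compared library by library. The tested member listed lowest by FPKM was RPS9, an early binder of small subunit RNA, with 11.3 ± 4.46 FPKM in control and 13.2 ± 4.95 FPKM in high glucose libraries. RPS9 had 9.97 to 14.7 CPM in all libraries, and by mean CPM it was not the lowest in control libraries, with 11.1 CPM beside 9.69 CPM for RPL39L. How reads that match several places or alternate contigs were counted is not given in the sources used here, so that the level of RPS9 is uncertain, and the ratio of its CPM to its FPKM varied 2.69-fold between libraries. The same ratio varied 4.37-fold for RPL14 and 4.11-fold for RPL37, and by less than 1.1-fold for 55 members, so that the FPKM of RPS9, RPL14 and RPL37 does not follow their counts.

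A few members were expressed as pairs of a parent gene and a paralog that encodes a near copy of the protein, and the choice between them can differ between tissues. RPL3L, the form of striated muscle, had at most 2 counts in any library, and RPL10L, the form of the testis, had 0 counts in all 10, which allows up to 0.0654 to 0.0925 CPM depending on the library, for counting error only. Neither was tested, and their parents RPL3 and RPL10 were at 1739 to 2392 CPM and 750.1 to 1070 CPM.

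RPS27L, the paralog of RPS27, had the smallest p of all members. RPS27L lies at chr15:63125872-63158021 on the minus strand and shares no stretch of 100 coding bases with another annotated gene, whereas every coding window of RPS27 recurs in other genes. RPS27L was at 193.2, 227.2, 191.9, 191.1 and 186.1 CPM in control replicates 1 to 5, and at 238.6, 211.3, 214.3, 208.7 and 222.6 CPM in HG_1 to HG_5. As with RPS6, all high glucose libraries lay above the controls except for replicate 2. Its log2 fold change was 0.15 (SE 0.06), 1.11-fold with an interval from 1.01 to 1.22, with an adjusted p of 0.146 in edgeR. Without HG_1 and control replicate 2 it was 0.17 (SE 0.03, adjusted p = 0.00245 in edgeR), and over the 23 alternatives the value of RPS27L ran from 0.12 to 0.23 and its adjusted p from 0.00245 to 0.350. The parent RPS27 was at 152.5 to 213.2 CPM in control and 148.5 to 216.9 CPM in high glucose libraries, with a log2 fold change of -0.02 (SE 0.12). As a share of the summed FPKM of the pair, RPS27L held 14.0%, 11.8%, 15.4%, 12.97% and 15.6% in control replicates 1 to 5 and 11.9%, 17.6%, 16.7%, 17.4% and 17.3% in HG_1 to HG_5. Control replicate 2 and HG_1 had the lowest shares of their groups, and the other 4 high glucose libraries lay above all controls.

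For each other paralog with a value above 0 the groups overlapped in its share of the pair. RPL22L1 held 69.5% ± 4.14 of the pair's FPKM with RPL22 in control and 68.5% ± 3.09 in high glucose libraries (SD, n = 5). By FPKM it was thus the larger partner. In mean CPM the 2 genes were closer, with 194.1 for RPL22L1 and 156.0 for RPL22 in control libraries. The ratio of CPM to FPKM varied between libraries 1.46-fold for RPL22L1, 1.41-fold for RPL36A and 1.27-fold for RPS27L. Their shares of a pair therefore also depend on the lengths behind the FPKM. RPL36AL held 41.6% ± 0.89 and 42.2% ± 3.68 of the pair with RPL36A. RPL26L1 with RPL26 was at 6.19% ± 0.47 and 5.89% ± 0.46, RPL7L1 with RPL7 at 5.50% ± 0.59 and 5.46% ± 0.60, and RPL39L with RPL39 at 3.75% ± 0.25 and 4.27% ± 0.44. RPL39L had the largest estimate of the steady members, a log2 fold change of 0.25, but at 8.43 to 12.2 CPM in control and 9.21 to 14.4 CPM in high glucose libraries the groups overlapped (SE 0.14, adjusted p = 0.276 in edgeR). RPL36AL had a log2 fold change of 0.13 (SE 0.08), and those of RPL22L1, RPL26L1 and RPL7L1 were -0.01 (SE 0.09), 0.02 (SE 0.07) and -0.01 (SE 0.05). Among the parents the values were 0.07 for RPL22, 0.09 for RPL26, 0.06 for RPL36A, 0.07 for RPL39, 0.02 for RPL7, 0.10 for RPL3 and 0.11 for RPL10, and none passed the test. Of this group only RPL7L1 was lowest, not highest, in HG_1 and in control replicate 2, with 168.9 and 170.0 CPM beside 180.8 to 196.1 CPM elsewhere.

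**Figure D4:**
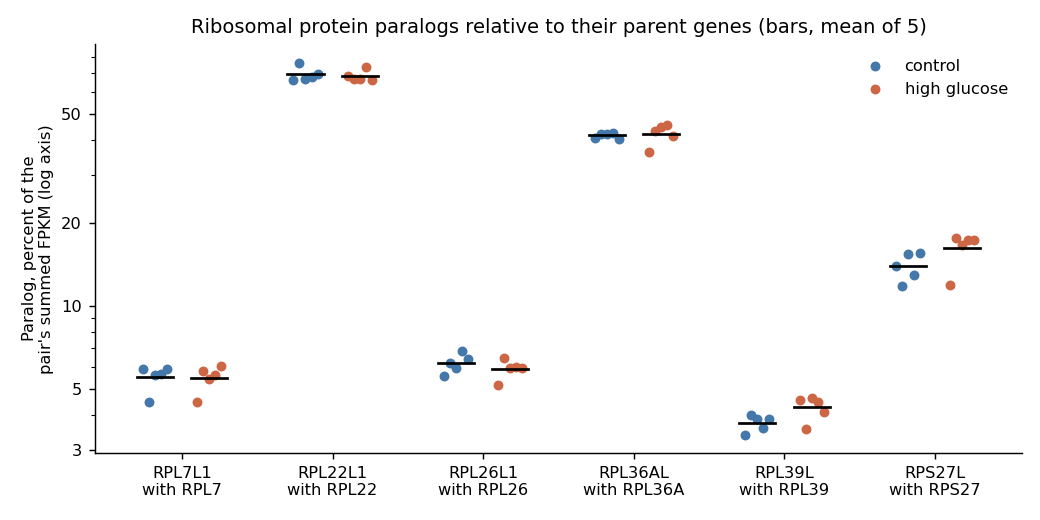
Paralog FPKM as a percent of the summed FPKM of paralog and parent (log axis), for 6 pairs, by library (blue, control; orange, high glucose; bars, group mean, n = 5). RPL22L1 exceeds its parent in all 10 libraries, and RPS27L is above every control in 4 of 5 high glucose libraries.

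A handful of members behaved unlike the rest and varied several-fold among libraries of the same group. They were noticed after their values were seen. RPS18, a protein of the small subunit head encoded at chr6:33272010-33276510 on the plus strand, was at 50.2, 40.4, 29.5, 56.8 and 56.0 CPM in control replicates 1 to 5. In HG_1 to HG_5 it was at 13.9, 11.9, 12.2, 58.9 and 65.1 CPM. The high glucose libraries thus split into 3 low and 2 high values, and the latter exceeded all controls.

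RPL7A, a large subunit protein whose gene at chr9:133348214-133351426 hosts small nucleolar RNAs, was at 544.9, 361.7, 299.8, 553.4 and 542.7 CPM in control replicates 1 to 5. In HG_1 to HG_5 RPL7A was at 714.8, 446.2, 501.4, 188.2 and 161.4 CPM. Of the high glucose libraries, those low in RPL7A, HG_4 and HG_5, were those high in RPS18. Among the controls, replicates 2 and 3 were the lowest in both genes.

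RPS25, a small subunit protein needed by some viral internal entry sites, lies at chr11:119015712-119018691 on the minus strand. It was at 30.4, 82.5, 108.6, 21.5 and 104.1 CPM in control replicates 1 to 5 and at 143.9, 109.6, 24.4, 106.7 and 22.3 CPM in HG_1 to HG_5. Each group held low and high libraries, and the low ones were not the same set as those of RPS18 or of RPL7A. The sets overlapped, since HG_3 was low in RPS25 and RPS18 and HG_5 in RPS25 and RPL7A. The largest value over the smallest within a group reached 5.47 for RPS18, 4.43 for RPL7A and 6.45 for RPS25, where a ratio above 4 was seen in 1.14% of the 9982 rows with a mean of at least 10 CPM.

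For 79 of the other members this ratio ran from 1.098 for RPS3A to 1.78 for RPL41 with a median of 1.33. The log2 fold changes were -0.53 (SE 0.51) for RPS18, -0.19 (SE 0.38) for RPL7A and 0.23 (SE 0.60) for RPS25. The errors of these 3 estimates were about as large as the estimates or larger, so that a difference between groups was not detectable in them. Without HG_1 and control replicate 2 the log2 fold changes were -0.39, -0.58 and -0.01 in the same order, and none passed. Windows of 100 coding bases found in other genes made up 20.2% for RPS18, 41.6% for RPL7A and 42.4% for RPS25, and how the counts were assigned among such copies is not given in the sources used here. Of the 84 members with a long enough coding sequence, 56 share at least 1 such window with another gene, 8 share all of them, and among the 26 tested members that share none the median log2 fold change was 0.03 and 19 were above 0.

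**Figure D5:**
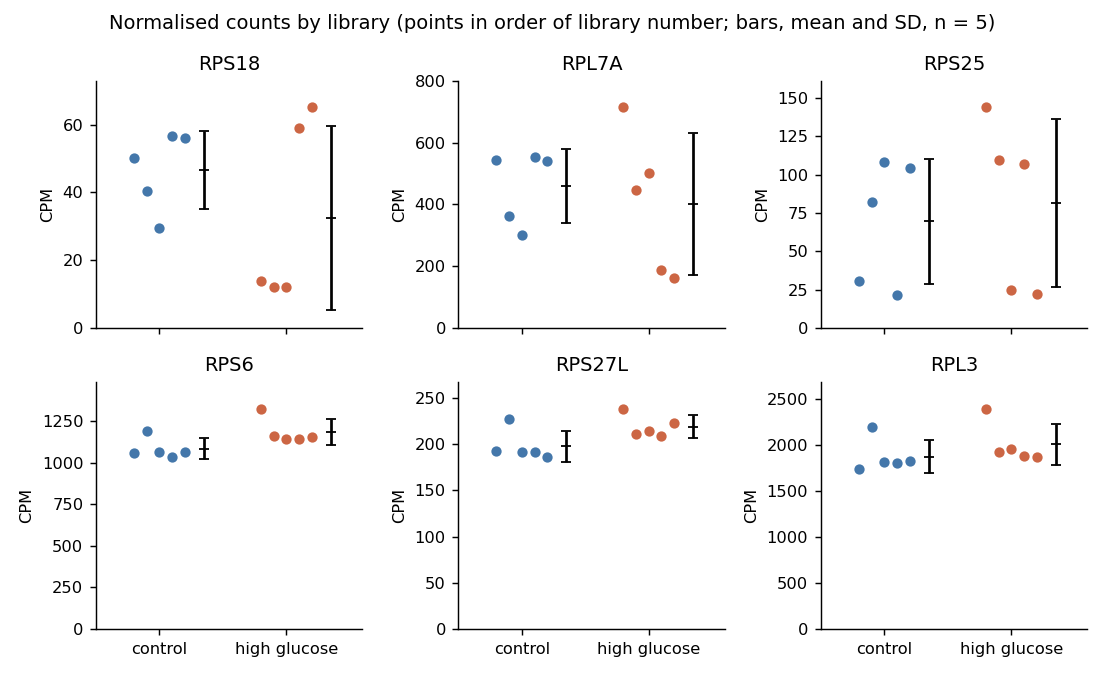
CPM by library of the 3 members that varied most within groups (top) and of RPS6, RPS27L and RPL3 (bottom) in control (blue) and high glucose (orange), with mean and SD (n = 5). RPS18, RPL7A and RPS25 range more than 4-fold among the high glucose libraries, and in the bottom row the highest value of each group is that of control replicate 2 or HG_1.

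Some ribosomal proteins are left out by the rule because of their gene names. FAU, which encodes RPS30 as a fusion to a ubiquitin-like protein, had a log2 fold change of 0.06 (SE 0.11). RACK1, a scaffold on the small subunit whose message is also of the TOP kind, was at 1160, 1390, 1166, 1175 and 1184 CPM in control replicates 1 to 5 and at 1610, 1290, 1347, 1274 and 1264 CPM in HG_1 to HG_5. All but control replicate 2 lay below every high glucose library, as for RPS6. The log2 fold change of RACK1 was 0.16 (SE 0.08, adjusted p = 0.209 in edgeR), and without HG_1 and control replicate 2 it was 0.14 with an adjusted p of 0.00486 in edgeR.

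Other messages with a TOP start, those of elongation and initiation factors and of RNA-binding proteins, were examined as well. Of 20 tested, 2 rose and 0 fell, where 7.62% of all rows rose and 7.8% fell, with a median log2 fold change of 0.06 and 15 above 0. NPM1, a nucleolar chaperone of ribosome assembly, was at 871.8, 875.8, 870.0, 914.2 and 899.7 CPM in control replicates 1 to 5 and 1117, 1083, 1082, 1140 and 1108 CPM in HG_1 to HG_5. The groups did not overlap, HG_1 and control replicate 2 were not apart from the rest, and the log2 fold change of NPM1 was 0.32 (SE 0.04, adjusted p = 0.000257 in edgeR). HNRNPA1, a splicing factor, rose by 0.19 (SE 0.04, adjusted p = 0.00421 in edgeR). Among all genes the 47 members with a TOP-like start had a median log2 fold change of 0.03 and the 20 tested members with a RefSeq start of another kind 0.05, beside 0.02 for the 769 other tested genes with such a start and 0.00 for the 10134 without.

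Among 14 genes that sense nutrients or act on TOP messages, 2 rose and 0 fell, where 7.62% of all rows rose and 7.8% fell. EIF4EBP1, the translation repressor that mTOR inactivates, was at 34.9 to 48.1 CPM in control and 49.9 to 73.1 CPM in high glucose libraries, a log2 fold change of 0.49 (SE 0.12, adjusted p = 0.0170 in edgeR). RHEB, the GTPase that activates mTOR complex 1, was at 125.2 to 137.7 CPM in control and 146.1 to 157.6 CPM in high glucose libraries and rose by 0.21 (SE 0.04, adjusted p = 0.00728 in edgeR). For neither gene did the groups overlap. LARP1, the repressor that binds the TOP motif, had a log2 fold change of 0.10 (SE 0.08), and LARP1B and LARP4 had 0.02 (SE 0.12) and 0.14 (SE 0.12). The kinase MTOR was at 0.00 (SE 0.06), its partners RPTOR and MLST8 at 0.05 (SE 0.04) and 0.14 (SE 0.13), the S6 kinases RPS6KB1 and RPS6KB2 at -0.12 (SE 0.09) and -0.17 (SE 0.10), and EIF4EBP2 at -0.09 (SE 0.05). The inhibitors TSC1 and TSC2 had log2 fold changes of 0.08 (SE 0.07) and -0.12 (SE 0.06), and MYC, which drives ribosome production, 0.01 (SE 0.04). None of these 12 genes passed the test.

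The machinery that makes ribosomes had members that changed in each direction. Of 96 ribosome assembly factors tested, 7 rose and 5 fell, where 15.4% of all rows passed in either direction, with a median log2 fold change of 0.02. Besides NPM1, the largest increases were those of RPF2, which with its partner loads the 5S particle of RPL5 and RPL11, at 0.33 (SE 0.05, adjusted p = 0.00226 in edgeR), and of RSL24D1, a placeholder for RPL24, at 0.29 (SE 0.05, adjusted p = 0.00304 in edgeR). The largest decreases were those of URB2 at -0.33 (SE 0.07, adjusted p = 0.00973 in edgeR), the nucleolar GTPase GNL3 at -0.24 (SE 0.05, adjusted p = 0.00793 in edgeR) and TCOF1, a factor of ribosomal RNA transcription, at -0.23 (SE 0.05, adjusted p = 0.00970 in edgeR). In each of these 5 genes the groups did not overlap. Of 14 RNA polymerase I genes tested, 0 passed, and of 15 dedicated chaperones and importins of ribosomal proteins 1 passed, the importin IPO9, which was at 138.7 to 158.7 CPM in control and 123.4 to 132.2 CPM in high glucose libraries and fell by 0.20 on the log2 scale (SE 0.04, adjusted p = 0.00993 in edgeR). Of 11 genes that watch over ribosomes, 1 rose, MDM2, which RPL5 and RPL11 bind, with 223.3 to 257.5 CPM in control and 268.6 to 313.1 CPM in high glucose libraries. Its log2 fold change was 0.29 (SE 0.05, adjusted p = 0.00459 in edgeR).

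The proteins of the mitochondrial ribosome, which translates the few messages of the mitochondrial genome, were set beside the cytosolic ones. Of 78 tested, 11 rose and 1 fell, where 7.62% of all rows rose and 7.8% fell (15.4% in either direction). The log2 fold change was above 0 in 65 of them, against 50.2% of all rows, with a median of 0.13 beside 0.03 for the cytosolic members and 0.00 for all rows. The difference between these sets was not tested.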

How the data were processed

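RNA was extracted with Trizol and made into libraries with the VAHTS Universal V6 kit. The authors deposited read counts per gene (counts, not normalized) and FPKM values of the same 10 libraries, divided by length and depth. The submitters' processing notes name fastp 0.20.1, HISAT2 2.2.1 and GRCh38, and the counting program, its strand setting and the annotation are not given in the sources used here. The members and gene lists were chosen with earlier results of these data known.

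From the counts, edgeR 4.0.16 in R 4.3.3 was used with its default filter on low counts, TMM scaling and the quasi-likelihood test, high glucose against control without covariates, adjusted over all 14936 rows tested (limit 0.05). CPM are TMM-scaled, log2 CPM have a prior count of 2, and intervals are 95% intervals from the standard error. Totals of 32448991 to 45864176 counts put 3 counts, the floor, at 0.0654 to 0.0925 CPM, and intervals and floors cover counting error or the spread of these libraries only. Genes named by rule were the members with the largest changes among those called (there were 0), all paralogs with their parents, RPLP0, RPLP1, RPLP2, RPSA, RPS6, RPL5, RPL11 and RPS27A, the 3 highest and 3 lowest by FPKM, the steadiest member, and of each other list the 3 largest changes each way among those called. Alternatives were DESeq2 1.42.0, the likelihood ratio test, other scalings and filters, limma 3.58.1 on log2(FPKM + 1) and log2(FPKM + 0.1), a lowess correction (span 0.3) for GC content and length over the 13538 rows with both in GENCODE 29, 1 surrogate variable from sva 3.50.0, and libraries left out. The scripts were tested on simulated data. A few genes are counted among those tested and are not reported here. Shared coding windows of 100 bases were searched in GENCODE 29 transcripts.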

Additional observations from a re-analysis of the deposited data

Results flagged for a closer look

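A part of the ribosomal protein values was checked by Dixon's test for single libraries that lie far from the other 4 of their group. These were the members named by rule, RPS18, RPL7A and RPS25, and the summed share of all members. The remaining members were not checked, and the genes below are therefore not a full list. RPL18, for example, was not checked and was at 621.6 CPM in control replicate 2 beside 458.5 to 477.7 CPM in the other controls. Of 58 groups of 5 values, 33 had such a library, and the limit of the test flags about 1 in 20 (2.9 of 58) by chance. In all 33 it was control replicate 2 (20) or HG_1 (13), each time the highest of its group. The members moved together over the same 10 libraries, so that the 58 groups are not independent. The share of all rows with such a library is not given here. Both libraries were the highest of their groups in 26.2% of all rows tested. The summed share of the members was 4.88% in control replicate 2 beside 4.01% to 4.12% in the other controls, and 5.06% in HG_1 beside 4.09% to 4.34% in the other high glucose libraries. In both libraries at once the stalk proteins RPLP0 (2162 CPM in control replicate 2 and 2300 CPM in HG_1) and RPLP1 (767.2 and 810.1 CPM) stood out, as did the large subunit members RPL3 (2190 and 2392 CPM), RPL7 (1033 and 1038 CPM), RPL10 (969.8 and 1070 CPM), RPL11 (590.7 and 606.2 CPM) and RPL13A (2152 and 2177 CPM). The small subunit members RPSA (1403 and 1382 CPM), RPS6 (1192 and 1324 CPM), RPS9 (13.8 and 14.7 CPM), RPS27 (213.2 and 216.9 CPM) and RPS27A (557.5 and 564.3 CPM) did the same. Among the members checked, 7 more lay apart in control replicate 2 alone. They were RPLP2 (482.3 CPM), RPL5 (861.0 CPM), RPL22L1 (234.5 CPM) and RPL36A (154.8 CPM), and further RPL39 (158.3 CPM), RPS27L (227.2 CPM) and RPS3A (591.0 CPM). RPS18, RPL7A and RPS25, which vary most, have no single library apart.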

How the results depend on the processing

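With all 10 libraries and no correction 0 members passed in edgeR, and this count also held with DESeq2, the likelihood ratio test, RLE size factors, library size alone, TMM without the members, no filter, at least 10 counts in every sample, the 3 limma fits on FPKM and without the paralogs. The GC content and length correction gave 0 higher and 8 lower members, 1 surrogate variable 2 and 10, and leaving out HG_1 with control replicate 2 gave 11 and 0. The same 3 fits called 1956, 2457 and 1984 rows higher and 1985, 2466 and 2051 lower, beside 1138 and 1165. Of the 168 tested genes of the 7 other lists they called 28, 34 and 27 higher and 13, 19 and 15 lower, beside 11 and 6, and DESeq2 called 10 lower. Members whose groups do not overlap numbered 1 higher and 6 lower after the correction (1483 and 1468 of all 13538 rows) and 12 higher without both libraries. Leaving out each library in turn gave 0 to 2 members higher and 0 lower, a median from -0.03 to 0.10, 0 to 12 members that do not overlap on the higher side (12 without control replicate 2, or 14.5%, beside 10.5% of all rows), a difference in summed share from -0.04 to 0.30 percentage points, and 7 to 14 genes of the other lists higher and 4 to 11 lower (11 without HG_1). For RPL28 the sign turned, from 0.02 to -0.067 with 1 surrogate variable (adjusted p = 0.0336 in edgeR). Of 1081 estimates for 47 named members under the alternatives, 102 in 31 members had the other sign than with all libraries in edgeR, at -0.17 to 0.11, and the one of RPL28 alone passed the threshold. The members' median turned from 0.03 to -0.03 with the correction, to -0.01 with 1 surrogate variable and to -0.03 without HG_1. The cause of these changes was not tested. Members with few counts (RPL39L, RPS9) and those that vary within groups (RPS18, RPL7A, RPS25) are the least precise. No paired analysis was possible because the groups share no replicate numbers in the labels, which give the high glucose samples letters, and nothing in the sources used here says that the column numbers of the tables pair the cultures.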
